A study of Papilio xuthus with 10 samples.

Results

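The 4th larval instar of the swallowtail butterfly Papilio xuthus was set against the instars on either side of it, the 3rd and the 5th, in whole-body RNA sequencing. A gene counted as changed when its log2(RPKM + 1) in the 4th instar lay on the same side of both neighbours by 2 or more. RPKM gives the reads of a gene corrected for its length and for the depth of the library. Of 15123 genes, 102 were higher and 267 were lower in the 4th instar, 369 genes in all. These choices used 3 of the 10 libraries of the series, and the changed genes were then followed in pupae and adults of both sexes.

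The series holds 1 library per stage, covering the egg, larvae of instars 1 to 5, male and female pupae, and male and female adults. Per the methods of the study, the egg and the first 2 larval libraries pooled many animals, whereas each library from the 3rd instar on came from 1 animal. No genotype, strain or treatment sets the groups apart, and the labels give neither the sex of the larvae nor the time within an instar. With no replicates, each difference below is a difference between libraries, no test was run, and stage, sex, time since the last moult and individual animal cannot be told apart. The totals recovered from the values were 29409552 reads for the 4th instar, against 28197950 for the 3rd and 23378656 for the 5th, and the other libraries held up to 35161755.

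A caterpillar grows through instars that are parted by moults, in which the old cuticle is shed and a new one is laid down. Pulses of the steroid ecdysone set each moult, and juvenile hormone holds the moult larval, so that its decline in the last instar opens the way to the pupa. Larvae feed and grow, the pupa does not feed while adult structures are built, and the adult lives for dispersal and reproduction. Many genes for cuticle, digestion and detoxification are known in other insects to be used at one phase of this cycle and silent at the next. The gene identifiers of the series come without names, so that the groups below are described by their levels and not by function, and the stage labels could not be checked against marker genes.

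More genes lay far below both neighbours than far above them. At a difference of 2, which is a 4-fold difference for genes of high level, the 102 higher genes were 0.674% of all genes and the 267 lower genes were 1.77%, so that higher genes made up 27.6% of those changed. With all libraries scaled to the same summed RPKM, the split was 127 higher against 206 lower, or 38.1%. At a difference of 1 the directions were nearly even, with 827 genes higher (5.47%) and 800 lower (5.29%). Counting any difference, however small, 6014 genes lay above both neighbours (39.8%) and 3947 below both (26.1%). The excess of lower genes thus appeared at the larger difference and not at the smaller ones. Because whole bodies were used, fewer cells of a type and less RNA per cell cannot be told apart in any of these values.

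**Figure D1:**
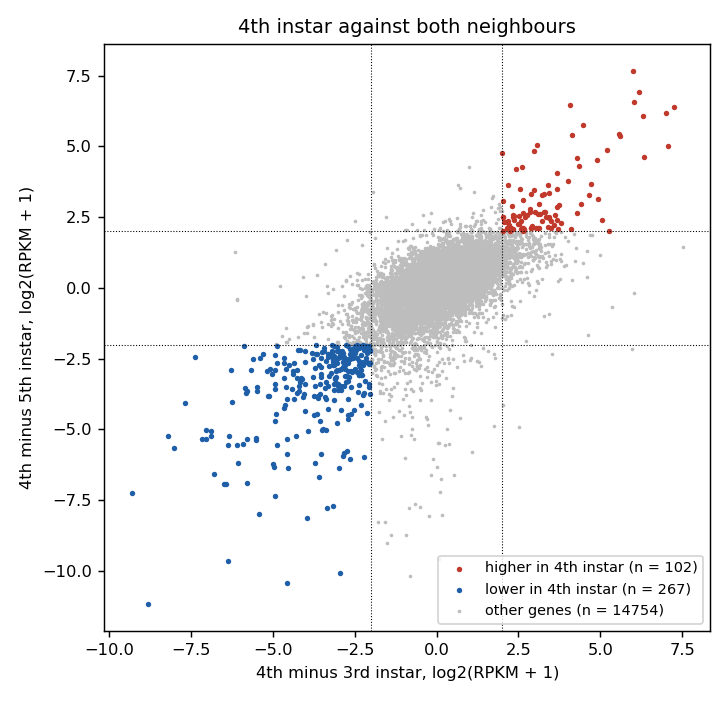
Each point is 1 of 15123 genes. The horizontal axis gives the difference between the 4th and the 3rd instar and the vertical axis that between the 4th and the 5th, both in log2(RPKM + 1), with dotted lines at a difference of 2 in each direction. The 102 genes higher in the 4th instar (red) fill the upper right corner and the 267 genes lower in it (blue) spread further out, in the lower left corner, to a smaller difference of 8.81.

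The 2 neighbours did not contribute alike. The 4th instar was higher than the 3rd in 464 genes (3.07%) and higher than the 5th in only 172 (1.14%). Of the 464, 22.0% also passed against the 5th instar, whereas of the 172, 59.3% also passed against the 3rd. In the other direction the 4th instar was lower than the 3rd in 524 genes (3.46%) and lower than the 5th in 535 (3.54%), and 51.0% and 49.9% of these passed against the other neighbour too. The same rule was applied to the earlier instars for comparison. The 3rd instar stood above the 2nd and the 4th in 73 genes (0.483%) and below both in 70 (0.463%). The 2nd instar stood above the 1st and the 3rd in 137 genes (0.906%) and below both in 220 (1.45%). At this difference the lower genes of the 4th instar were the largest of these 6 counts. At a difference of 1 the largest was the 2nd instar below both neighbours, with 1798 genes, against 800 for the 4th, and it was so too by any amount, with 7413 against 3947. These counts share libraries with one another.

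The changed genes were well covered. Among the 102 higher genes, the 4th instar held 32 reads or more per gene, with a median of 855.5, and among the 267 lower genes the less covered of the 3rd and the 5th instar held 10 or more, with a median of 1644. The exact 95% Poisson interval of the 4th instar lay apart from those of both neighbours in 102 of 102 and in 267 of 267 genes. The genes were chosen on the same libraries, so that this separation was largely fixed by the rule. These intervals cover counting error only and hold nothing of the variation between animals. Reads summed over genes exceeded the library total in each of these libraries, so that the intervals may also be too narrow. The smaller of a gene's 2 differences had a median of 2.52 in the higher genes and of 2.74 in the lower genes. It reached 4 or more in 17 higher and in 39 lower genes. At the threshold, the nearest higher gene inside had a smaller difference of 2.01 and the nearest outside 1.99, and 24 genes lay between 1.9 and 2 against 15 between 2 and 2.1. For the lower genes, 36 lay between 1.9 and 2 and 27 between 2 and 2.1.

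The 3rd and the 5th instar were next set against each other in these genes. They differed by under 1 in log2(RPKM + 1) in 72 of the 102 higher genes and in 162 of the 267 lower genes, and by 2 or more in 6 and 44. The rule used both libraries, and the share of all genes within that difference was not counted. These counts are therefore descriptions and no trait of the changed genes. Against the 2nd instar, which the rule did not use, the 4th differed in the same direction by 2 or more in 75 of the 102 higher genes and in 181 of the 267 lower genes. Of all genes, 7.32% were higher and 5.07% lower in the 4th instar than in the 2nd by that amount, but the counts of members reuse the 4th-instar values that chose them. The median level of the higher genes was 36.6 RPKM in the 4th instar, against 3.08 in the 2nd, 2.42 in the 3rd and 3.08 in the 5th. That of the lower genes was 6.11 RPKM in the 4th instar, against 65.3 in the 2nd, 83.5 in the 3rd and 89.0 in the 5th. In the egg and the 1st instar the lower genes were also well above their 4th-instar level, at medians of 31.2 and 43.7 RPKM, while the higher genes stood at 6.16 and 6.89. For the lower genes the rule itself sets the dip between the 3rd and the 5th instar. The medians of the egg and the 1st and 2nd instars also lay above that of the 4th. The rule did not use those libraries, but the comparison reuses the 4th-instar values that chose the genes.

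The genes with the largest differences stood far from both neighbours. RR46_14636 had 974 RPKM in the 4th instar (95% interval 963 to 985), against 5.48 in the 3rd and 10.6 in the 5th. That was 178-fold the level of the 3rd instar and 92.1-fold that of the 5th. RR46_14637, whose number follows directly, had 1183 RPKM in the 4th instar, against 8.20 in the 3rd and 15.3 in the 5th. Both were under 1 RPKM in the egg and the first 2 instars, with 0.482, 0.571 and 0.550 RPKM for RR46_14636. Both were also abundant in the pupae. RR46_14636 stood at 324 RPKM in the male and 406 in the female pupa, then at 17.4 in the male adult and 146 in the female adult. RR46_14637 stood at 701 RPKM in the male pupa, 581 in the female pupa, 32.1 in the male adult and 301 in the female adult. The 4th instar was the highest of the 10 libraries for each, and the pupae came next.

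Among the lower genes, RR46_05828 had 0.556 RPKM in the 4th instar, from 8 reads, with an interval of 0.240 to 1.10. Against that it had 699 RPKM in the 3rd instar and 3584 in the 5th, which were 1257-fold and 6442-fold its 4th-instar level. It was present in each earlier library, with 129 RPKM in the egg, 233 in the 1st instar and 1069 in the 2nd. After the 5th instar it was near its 4th-instar level again, with 0.698 RPKM in the male pupa, 0.942 in the female pupa, 0.655 in the male adult and 0 reads in the female adult, which allows up to 0.175 RPKM at 3 reads. RR46_06420 had 6.47 RPKM in the 4th instar, against 4687 in the 3rd and 1138 in the 5th. It too was low after the larval stages, with 8.62 RPKM in the male pupa, 0.0824 in the female pupa, 0.429 in the male adult and 0.0509 in the female adult. Both genes were thus high in the 2nd, 3rd and 5th instars and low in the 4th instar, the pupae and the adults.

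**Figure D2:**
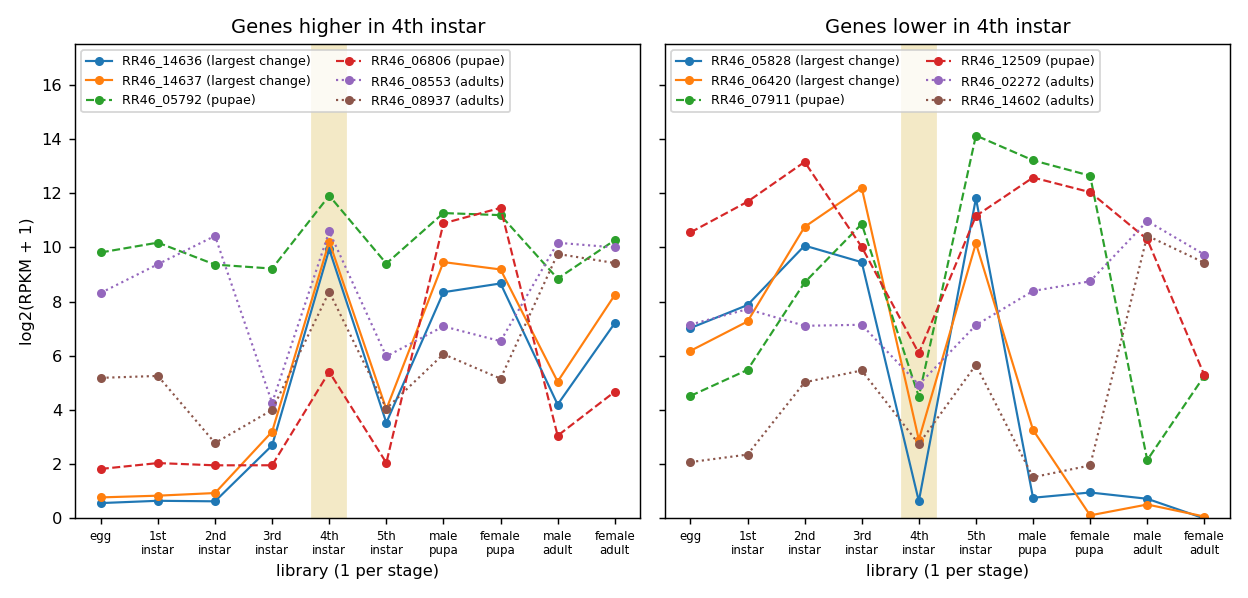
Level in log2(RPKM + 1) of the named genes in each of the 10 libraries, with genes higher in the 4th instar on the left and genes lower in it on the right. Lines join the libraries of 1 gene, the shaded column marks the 4th instar, and the line style gives the rule that named the gene (largest change, pupae or adults). RR46_14636 and RR46_14637 are low up to the 3rd instar, highest in the 4th, low again in the 5th and high in the pupae, while RR46_05828 is at 0.556 RPKM in the 4th instar, against 699 RPKM in the 3rd and 3584 in the 5th.

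The 2 lists parted in the pupae and adults. The genes higher in the 4th instar were mostly expressed there, with medians of 13.0 RPKM in the male pupa, 11.5 in the female pupa, 16.4 in the male adult and 19.2 in the female adult. Over all genes the medians were 7.86, 7.40, 7.70 and 7.31 RPKM in the same order. The genes lower in the 4th instar had medians of 1.59 RPKM in the male pupa, 1.44 in the female pupa, 2.32 in the male adult and 0.653 in the female adult. Those medians lay under the 6.11 RPKM of the 4th instar and far under the larval values on either side. The rule asks the lower genes to be expressed in the 3rd and the 5th instar, so that their larval levels are no finding, but it places no demand on pupae or adults. It also asks the higher genes to be expressed in the 4th instar, where 102 of 102 reached 1 RPKM, beside 72.2% of all genes. All genes are thus no matched background for the higher genes. How much of their higher medians in pupae and adults comes from this was not tested. The levels of pupae and adults against those of the 4th instar share the 4th-instar values with the rule and are given as descriptions.

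**Figure D3:**
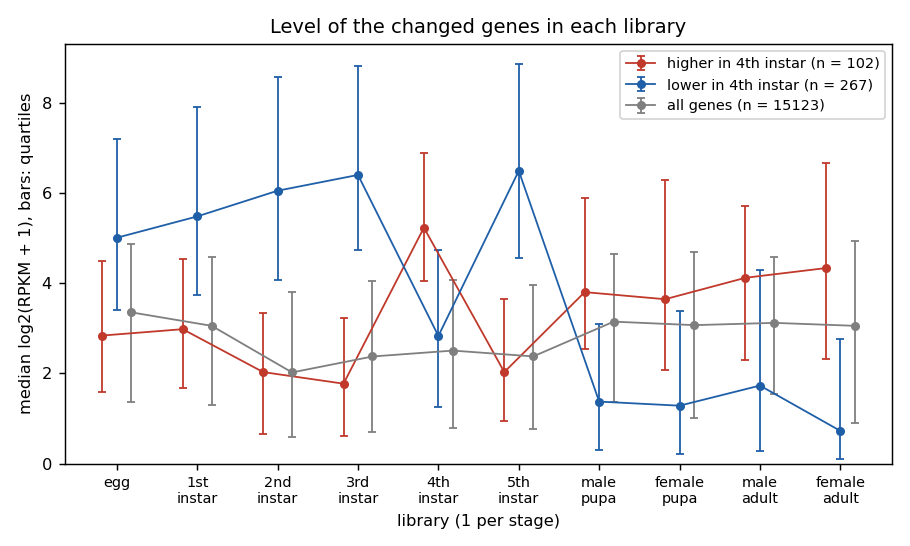
Median level in log2(RPKM + 1) of the 102 genes higher (red) and the 267 genes lower (blue) in the 4th instar and of all 15123 genes (grey) in each library, with bars from the lower to the upper quartile over genes. The higher genes stay above the median of all genes in pupae and adults, and the lower genes, which lie above it in the egg and each larval library, lie below it in pupae and adults.

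Counts of genes gave the same picture as the medians, with the same limit, that all genes include some scarcely expressed in larvae. A level of 10 RPKM or more in both pupae and both adults was reached by 41 of the 102 higher genes (40.2%) and by 22 of the 267 lower genes (8.24%), beside 28.2% of all genes. A level under 1 RPKM in all of these libraries was found for 4 higher genes (3.92%) and for 71 lower genes (26.6%), beside 9.12% of all genes. At least 1 pupa or adult held 0 reads for 2 of the higher genes and for 65 of the lower genes (24.3%), beside 10.3% of all genes. The female adult held the most of these, with 40 lower genes at 0 reads, and the 4th instar itself held 6.

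The 71 lower genes that were under 1 RPKM in all pupae and adults had a median of 3.50 RPKM in the 4th instar, against 103 in the 3rd and 74.7 in the 5th. The rule and the choice of these genes fix much of that order. The 22 lower genes at 10 RPKM or more throughout pupae and adults had a median of 16.0 RPKM in the 4th instar, against 156 in the 3rd and 160 in the 5th. Their median was 54.0 RPKM in the male pupa, 51.2 in the female pupa, 209 in the male adult and 39.6 in the female adult. The 41 higher genes at 10 RPKM or more throughout had a median of 104 RPKM in the 4th instar, against 7.90 in the 3rd and 11.5 in the 5th, and of 65.7 RPKM in the male pupa, 84.3 in the female pupa, 54.4 in the male adult and 131 in the female adult. Of the lower genes, 17 were at 10 RPKM or more in both pupae and under it in both adults, and 15 were the reverse (6.37% and 5.62%). Of the higher genes, 3 were of the pupal kind (2.94%) and 12 of the adult kind (11.8%). Among all genes 2.53% were of the pupal and 2.68% of the adult kind, so that the 3 higher genes lay near that background.

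**Figure D4:**
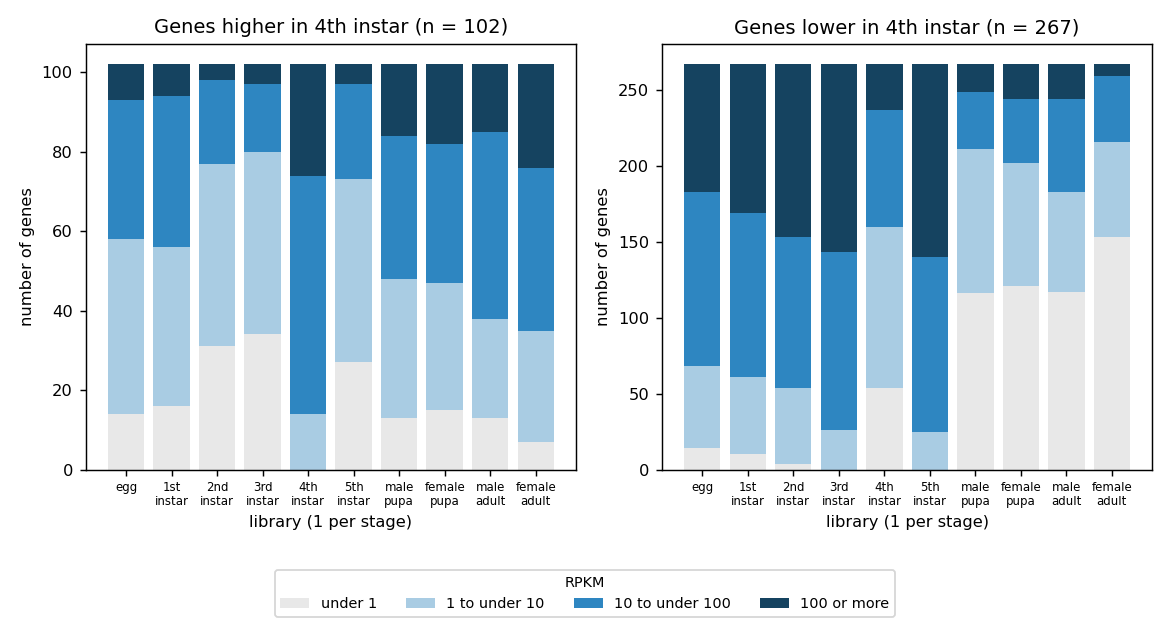
Number of genes in each band of RPKM, by library, for the 102 genes higher in the 4th instar (left) and the 267 genes lower in it (right). Among the higher genes, 88 reach 10 RPKM in the 4th instar and 22 in the 3rd, and 54 to 67 do so in the pupae and adults. Among the lower genes, 107 reach it in the 4th instar, 241 in the 3rd and 242 in the 5th, and 51 to 84 in the pupae and adults.

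Where each gene had its highest and lowest level was also counted. For 51 of the 102 higher genes the 4th instar was the highest of the 10 libraries, beside 5.01% of all genes, which again draws on the values of the rule. The highest library was a pupa for 16 higher genes (15.7%) and an adult for 28 (27.5%), beside 24.0% and 38.7% of all genes. Of the higher genes, 58 (56.9%) were below their 4th-instar level in each pupa and adult and 9 (8.82%) were at or above it in each, beside 13.4% and 42.2% of all genes. These counts and those of the highest library reuse the 4th-instar values that chose the higher genes. The shares of all genes are thus no matched background for them. The highest library was a larval one for 228 of the 267 lower genes (85.4%), which the rule makes likely through the 3rd and 5th instars and which is no finding. For 219 lower genes (82.0%) the lowest library was a pupa or an adult, beside 25.2% of all genes. The rule bars the 3rd and the 5th instar from being lowest for these genes. Among all genes those libraries were lowest for 7.41% and 15.0%, so that the 25.2% is no matched background. The 4th instar alone was lowest for 38 lower genes, and it shared the lowest value with another library, at 0 reads, for 5 more. Of the lower genes, 123 (46.1%) were still lower in each pupa and adult than in the 4th instar, beside 13.4% of all genes. For most of the lower genes the 4th instar was therefore low among larvae and yet not the lowest of the 10 libraries.

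The 267 lower genes held 1.34% of the summed RPKM of the 4th instar, against 18.6% in the 3rd and 16.8% in the 5th. They held 9.08% in the egg, 13.1% in the 1st instar and 26.0% in the 2nd, then 1.97% in the male pupa, 1.71% in the female pupa, 2.12% in the male adult and 0.600% in the female adult. The 102 higher genes held 1.37% in the 4th instar, against 0.117% in the 3rd and 0.106% in the 5th, and in the pupae and adults 1.03% (male pupa), 1.24% (female pupa), 0.685% (male adult) and 1.26% (female adult). The lower genes thus held the larger share in all libraries but the 4th instar and the female adult. A handful of genes made up these sums, with 7 of the 267 lower genes giving 50% of their sum in the 3rd instar and 7 in the 5th. The deposited scale itself differed among the libraries, since reads summed over genes came to 124% of the library total in the 4th instar, against 136% in the 3rd and 142% in the 5th. That share was 92.4% in the 1st instar and 154% in the 2nd. In the egg, pupae and adults it ran from 76.5% (female adult) to 98.6% (male adult). The part of the scale in the differences was checked by rescaling only. The median difference of the 13055 genes averaging at least 1 RPKM was 0.05 against the 3rd instar and 0.15 against the 5th, and with all libraries at the same sum it was 0.19 and 0.24.

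**Figure D5:**
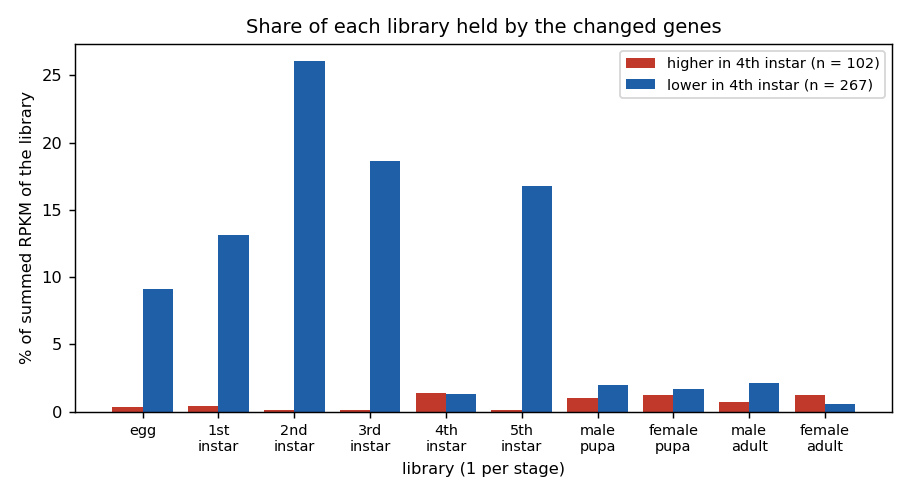
Share of the summed RPKM of each library, in percent, held by the 102 genes higher (red) and the 267 genes lower (blue) in the 4th instar. The lower genes hold 18.6% of the 3rd and 16.8% of the 5th instar and 1.34% of the 4th, close to their 1.71% to 1.97% in the pupae.

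The changed genes with the highest levels in both pupae were next. Of the higher genes, RR46_05792 had 3836 RPKM in the 4th instar, against 594 in the 3rd and 675 in the 5th. Its level was 2459 RPKM in the male and 2331 in the female pupa, and 459 in the male adult and 1228 in the female adult. RR46_06806 had 41.5 RPKM in the 4th instar, against 2.90 in the 3rd and 3.15 in the 5th, and its pupal levels of 1889 RPKM in the male and 2806 in the female were 45.6-fold and 67.7-fold that of the 4th instar. In adults it was back at 7.30 RPKM in the male and 24.5 in the female. It was thus highest in the pupae, with a much smaller peak in the 4th instar.

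Of the lower genes, RR46_07911 had 21.5 RPKM in the 4th instar, against 1861 in the 3rd and 17860.1 in the 5th. It remained abundant in the pupae, with 9466 RPKM in the male and 6389 in the female, and was low in the adults, with 3.45 RPKM in the male and 37.3 in the female. RR46_12509 had 67.4 RPKM in the 4th instar, against 1032 in the 3rd and 2284 in the 5th. It stood at 6099 RPKM in the male and 4192 in the female pupa, and differed between the adults, with 1255 RPKM in the male and 38.0 in the female. In both genes the 4th instar was low between high levels in the 3rd and 5th instars and the pupae.

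The genes highest in both adults gave another set. RR46_08553, a higher gene, had 1537 RPKM in the 4th instar, against 18.2 in the 3rd and 62.0 in the 5th, with 1150 RPKM in the male adult and 1021 in the female adult. It was also high in the 2nd instar, at 1371 RPKM, so that the 3rd instar was the low one between them. RR46_08937 had 328 RPKM in the 4th instar, against 15.0 in the 3rd and 15.6 in the 5th, and 864 RPKM in the male adult and 685 in the female adult. Among the lower genes, RR46_02272 had 29.6 RPKM in the 4th instar, against 140.4 in the 3rd and 139 in the 5th. Its level was 2004 RPKM in the male adult and 850.0 in the female adult, and between 137 and 210.0 RPKM in the egg and the first 2 instars. RR46_14602 had 5.70 RPKM in the 4th instar, against 43.0 in the 3rd and 49.8 in the 5th. It was at 1.87 RPKM in the male and 2.88 in the female pupa and reached 1378 RPKM in the male adult and 690 in the female adult.

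Differences between the sexes and between adults and pupae use no larval value. The rule still picks genes expressed in larvae, whereas all genes include some scarcely expressed there. The shares of all genes are thus no matched background. Between the pupae, 2 of the higher genes (1.96%) were higher and 4 (3.92%) lower in the male by 2 or more. Of the lower genes, 6 (2.25%) were higher and 7 (2.62%) lower, where 4.03% of all genes were higher and 0.456% lower. Both lists thus had a smaller share higher and a larger share lower in the male pupa than all genes, from a handful of genes. In adults the lists leaned in opposite directions. Of the 102 genes higher in the 4th instar, 3 (2.94%) were higher in the male adult and 14 (13.7%) lower, and of the 267 lower genes, 53 (19.9%) were higher and 7 (2.62%) lower, where 10.3% of all genes were higher and 8.87% lower. The median male-minus-female difference in adults was 0.29 for the lower genes. For the higher genes it was -0.28 as deposited, and it turned to 0.08 with all libraries at the same upper quartile, a scaling under which 9 of them were higher and 7 lower in the male adult. That scaling put the median of the 13055 genes averaging at least 1 RPKM at 0.29, against -0.01 as deposited. Relative to those genes the higher genes lay lower in the male adult under both of these scalings, under the same sum and under median ratios.

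Between pupae and adults, 18 of the higher genes (17.6%) were higher in the female adult than in the female pupa by 2 or more and 11 (10.8%) lower, where 6.17% of all genes were higher and 5.31% lower. In males 17 (16.7%) were higher in the adult and 17 lower, where 8.91% of all genes were higher and 4.87% lower. Of the genes lower in the 4th instar, 26 (9.74%) were higher and 50 (18.7%) lower in the female adult than in the female pupa, whereas in males 56 (21.0%) were higher and 30 (11.2%) lower in the adult. Among the lower genes past a difference of 2, more were thus lower than higher in the female adult, and more were higher than lower in the male adult. In males all genes leaned upwards too, so that this lean was not particular to the list. Most lower genes did not pass, and the median adult-minus-pupa difference of the list was -0.12 in females and 0.03 in males. Both lists had larger shares past a difference of 2 than all genes in both sexes, but all genes include some scarcely expressed, which the rule leaves out. With 1 animal per library, the difference between the sexes could not be tested.

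Members of each list often carried consecutive numbers. Of the 102 higher genes, 24 (23.5%) had another member at the next or previous identifier number, and of the 267 lower genes 94 (35.2%) did. Among all genes, 1.30% had a higher gene and 3.28% a lower gene at a neighbouring number. The higher genes formed 11 runs of 2 or more consecutive numbers and the lower genes 38, of which 10 had 3 or more members. The longest run of lower genes, RR46_04701 to RR46_04706, had 6 members, which ranged from 1.10 to 51.9 RPKM in the 4th instar, against 31.3 to 1159 in the 3rd and 7.67 to 586 in the 5th. Its members were at 0 to 2.76 RPKM in the male pupa, 0 to 3.19 in the female pupa, 0 to 3.63 in the male adult and 0 to 0.626 in the female adult. A run of 3 higher genes, RR46_14148 to RR46_14150, ranged from 11.1 to 78.4 RPKM in the 4th instar, against 0 to 0.255 in the 3rd and 0.112 to 0.205 in the 5th, and from 55.4 to 247 RPKM in the male pupa, and 111 to 266 in that of the female. Both runs were chosen after their values were seen, and whether the numbering follows position along the genome is not given in the sources used here. None of the changed genes belonged to the 8 clusters of near-identical copies, which hold 33 genes.

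The higher genes had the shorter median length. The recovered coding length, the smallest that a gene's values allow, had a median of 717 bp in the higher genes, with quartiles of 412.5 and 1261.5 bp, and of 954 bp in the lower genes, with quartiles of 619.5 and 1533 bp. Over all genes the median was 1002 bp, with quartiles of 534 and 1695 bp.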

How the data were processed

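Whole bodies were taken from 10 stages, 1 library each. The authors selected poly-A RNA, primed cDNA with random hexamers and sequenced both ends on an Illumina instrument. The submitters' processing notes name TopHat 1.0.12 and 1.4.1. The deposited values are RPKM, normalised by the authors to gene length and library total. Their handling of strand and of reads with several hits is not given in the sources used here.

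Values were compared as log2(RPKM + 1), which understates differences of low genes. Whole reads, lengths and totals were solved from the deposited RPKM for all 15123 genes (100%) and served for counting error only. Their absolute scale rests on a commonest length gap of 3 bp, and a true length or read number may be a multiple of that given. Near-identical copies were genes of 1 length whose reads differed by at most 2% in each library. The counting of genes was tested on simulated data.

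Identifiers were named by rule, at most 2 per direction and comparison. These were the genes with the largest smaller difference at 10 RPKM or more in the higher libraries, and those highest in the lower of the 2 pupae or adults. Of the 13139 genes that RefSeq lists for assembly Pxut_1.1, 0 carry one of these identifiers, so no gene lists and no sequences were used. The rule, the changed genes and the thresholds were chosen with earlier results of these data known. Alternatives were a difference of 1, a pseudocount of 0.1, 3 scalings between libraries, a filter at a mean RPKM of 1, copies counted once and other neighbours. Python 3.11.15, numpy 2.4.6, pandas 2.3.3 and scipy 1.17.1 were used.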

Additional observations from a re-analysis of the deposited data

Results flagged for a closer look

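Of the 102 genes higher in the 4th instar, 1 differed between the sexes by 2 or more in opposite directions in pupae and adults. This gene, RR46_12186, had 21.6 RPKM in the male pupa against 135 in the female pupa, and 70.4 RPKM in the male adult against 6.64 in the female adult. Its level was 3503 RPKM in the 4th instar, against 418 in the 3rd and 105 in the 5th. The reversal between the stages was not tested, since each value comes from 1 animal. The share of all genes with such a reversal was not counted, so that this 1 gene is a description only.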

How the results depend on the processing

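The counts depended most on how a change was counted. With a difference of 1 in place of 2 there were 827 higher and 800 lower genes (50.8% higher), and with a pseudocount of 0.1 there were 325 and 455 (41.7%), in place of 102 and 267 (27.6%). Against the 3rd instar alone there were 464 and 524, and against the 5th alone 172 and 535. With all libraries at the same sum, the share of higher genes was 38.1%. With the same upper quartile there were 98 and 308 genes, of which 91 and 267 were among those of the deposited scale, and with median ratios 82 and 336, of which 79 and 267 were. A filter at a mean RPKM of 1 and counting copies once left both counts as they were, and neither could change them. A difference of 2 already implies a mean of 1 RPKM or more over the 3rd to 5th instars, and none of the changed genes belonged to a cluster of copies. Among levels, the lower genes at a difference of 1 had medians of 5.10 RPKM in the male pupa, 4.54 in the female pupa, 8.23 in the male adult and 2.97 in the female adult. At the same sum, the median of the lower genes was 1.48 RPKM in the male adult, and that of the higher genes 18.4 in the female pupa and 39.1 in the female adult. At the same upper quartile, the higher genes had a median of 12.8 RPKM in the female adult. With the list chosen anew under each scaling, the median male-minus-female difference of the higher genes in adults was 0.26 with equal upper quartiles and -0.83 with equal sums. Any-amount shares under the scalings, added after the data were seen, ran from 51.2% to 69.6%. Of 90 values over 16 results, the other 69 stayed within set limits. These were 1.5 times the reported count or median, 0.5 of a log2 difference, and a limit in percentage points for shares. The 69 include every value under the filter and the copy count, which could not move. They also include the any-amount share of 51.2%, against 60.4% as deposited. Depth limits little here, since 6 higher and 7 lower genes had under 100 reads in the higher libraries, whereas the variation between animals is unknown.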

Other observations

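For 33 of the 267 genes lower in the 4th instar the highest of the 10 libraries was a pupa or an adult (12.4%), and for 22 of them it was the male adult (8.24%). Both shares lay under those of all genes, which were 62.7% and 17.7%. The rule makes a larval highest library likely, so that this is no finding. These 33 genes had a median of 123 RPKM in the male adult against 10.96 in the female adult, and of 18.4 RPKM in the male and 15.8 in the female pupa. Their median in the 4th instar was 5.90 RPKM, against 52.4 in the 3rd and 36.5 in the 5th. The rule and the choice of these 33 genes by their highest library fix much of these levels, that of the male adult included.

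The 38 lower genes whose single lowest library was the 4th instar had a median of 2.00 RPKM there, against 29.3 in the 3rd instar and 26.6 in the 5th. Their medians were 17.1, 18.8 and 15.8 RPKM over the egg and the first 2 instars, then 10.97 in the male pupa, 12.02 in the female pupa, 29.7 in the male adult and 8.57 in the female adult. The least expressed of them stood at 0.450 RPKM in the male pupa, 0.372 in the female pupa, 0.773 in the male adult and 0.653 in the female adult. The choice of these 38 genes puts the 4th instar below every other library, so that this order is no finding.

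The 4 genes higher in the 4th instar that stayed under 1 RPKM in both pupae and both adults had a median of 140 RPKM in the 4th instar, against 16.4 in the 3rd and 4.89 in the 5th. In the egg and the 1st instar their medians were 76.7 and 159 RPKM, and in the 2nd instar 2.36 RPKM.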
